A study of Oryza sativa with 4 samples.

Results

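The rice kinesin family was followed in RNA from stage 0 panicle primordia of the Indica rice cultivars Pusa 1266 and Pusa Basmati 1, hybridized to 4 Affymetrix arrays, 2 biological replicates per cultivar. Members were the genes whose symbol or synonym in the reference gene table (RefSeq, assembly ASM3414082v1 of a Japonica rice) is KIN, a number and an optional letter. The table holds 37 such genes, and 34 of them had a probe set of their own among the 17905 genes with one. KIN12F, KIN14D and KIN14P had none and were not analysed here. Where a gene had several probe sets, the one with the highest mean over all arrays stood for it. The sample titles call both cultivars low in grain number, whereas the characteristics of Pusa 1266 give a high number per panicle and those of Pusa Basmati 1 a low one. Neither treatment nor mutation separates the cultivars in the labels. How many plants were pooled in a sample is not given in the sources used here.

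Kinesins are motor proteins that use ATP to move along microtubules or to take their ends apart. In plants they build the mitotic spindle, carry the cell plate forward in the phragmoplast, mark the plane of division and guide the cortical microtubules along which cellulose is laid down. They are numbered by subfamily from the sequence of the motor domain, and KIN14, whose motors run towards the minus end, is the largest subfamily of land plants. A panicle primordium is a tissue of dividing meristems, in which many of these motors are at work.

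KIN14R (LOC4352796, chromosome 12) was the member furthest apart between the cultivars. Its deposited signals were 659 and 741 on the Pusa 1266 arrays, against 70.3 and 61.4 on the Pusa Basmati 1 arrays. It was the only one of the 32 tested members with deposited signals higher on both Pusa 1266 arrays than on both Pusa Basmati 1 arrays. The share of all tested genes with such signals was not counted. Without normalization between arrays 4.63% of all tested genes were called higher in Pusa 1266. After quantile normalization of log2(signal + 16) the difference of KIN14R was 3.83 ± 0.10 on the log2 scale (SE, n = 2 per cultivar). This is 14.2-fold higher in Pusa 1266 (limma, adjusted p = 1.05e-07). The normalized values had an SD of 0.19 in Pusa Basmati 1, while those of Pusa 1266 differed by less than 0.01. Of the 15181 tested genes 38 (0.25%) stood higher. KIN14R had no second probe set, so whether the probes match both cultivars equally was not tested. The size of its difference depends on the added constant, at 4.20 with a pseudocount of 1 and 3.10 with one of 64.

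**Figure D1:**
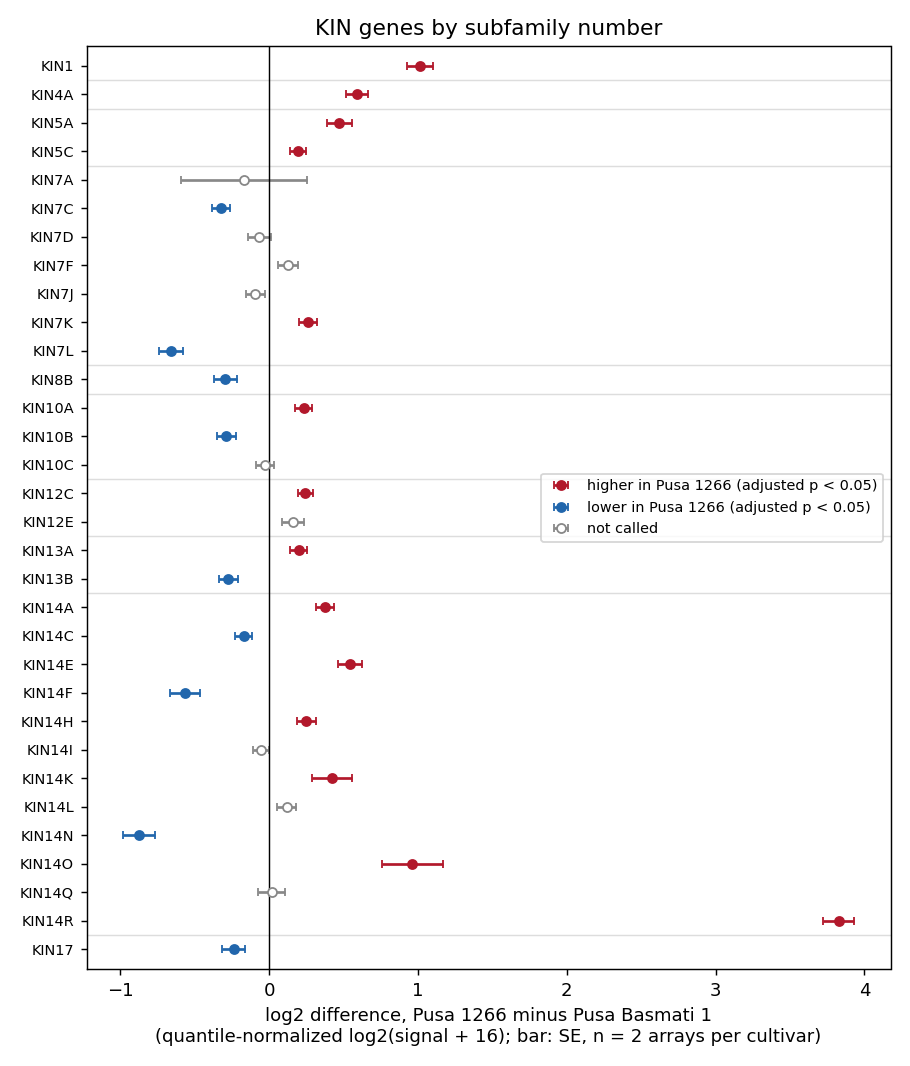
Log2 difference (Pusa 1266 minus Pusa Basmati 1, quantile-normalized log2(signal + 16)) of the 32 tested KIN genes, by subfamily number from top to bottom; points are estimates and bars their SE (n = 2 arrays per cultivar), filled where the adjusted p was under 0.05. KIN14R stands alone at 3.83, and the other 31 members lie between −0.87 and 1.02.

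The other 31 members differed less than KIN14R, between −0.87 and 1.02 on the log2 scale after quantile normalization. Of the 32 tested members, those above their array's median signal on at least 2 arrays, 14 were higher and 9 lower in Pusa 1266 at an adjusted p of 0.05 in limma, 43.8% and 28.1%, or 71.9% in either direction. Among all tested genes 34.7% were higher and 26.2% lower, 60.9% in either direction, and whether the family's larger share differs from that was not tested. Without the first Pusa 1266 array the counts were 9 higher and 8 lower, and with eBayes without a trend 8 and 5. The median difference was 0.12 for the members and 0.07 for all tested genes. In 20 of the 32 members the difference was smaller than 0.3 in either direction, and the share of all tested genes within that bound was not counted. KIN14R and KIN1, 2 members, were higher at 2-fold or more, where the background is 5.56%. None was lower at 2-fold or more, where the background is 7.25%. The normalized values of the cultivars did not overlap in 28 of the 32 members, 87.5% against 81.9% of all tested genes.

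These directions depended on the scaling between arrays, and the deposited table was not on a common level. Median signals were 6.8 and 7.8 in Pusa 1266, against 11.5 and 11.3 in Pusa Basmati 1. These medians lay below the added constant of 16, and 55.2% to 62.5% of the signals on an array were 16 or less. In the deposited signals 27 of the 32 members were lower on both Pusa 1266 arrays than on both Pusa Basmati 1 arrays. The matching share of all tested genes was not counted, so this count is not set apart from the lower level of the Pusa 1266 arrays. With the deposited scaling 1 member was called higher, KIN14R, and 25 lower, where 4.63% of all tested genes were higher and 66.6% lower. With each array centred on its median the counts were 3 and 18 (8.5% and 51% of all genes). With all arrays brought to a common trimmed mean they were 14 and 8 (34.6% and 27%). Both scalings set a common level but gave different counts, and why was not tested. The median of all tested genes was −0.62 under the deposited scaling and −0.38 once arrays were centred on their medians. Against those medians 14 members stood above and 18 below. Centring moves the difference of every gene by the same amount, so this count is bound to be the same in both scalings. After quantile normalization 17 members stood above the median of all tested genes and 15 below. KIN14R exceeded the median of all tested genes by 3.75 after quantile normalization and with the deposited scaling alike.

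**Figure D2:**
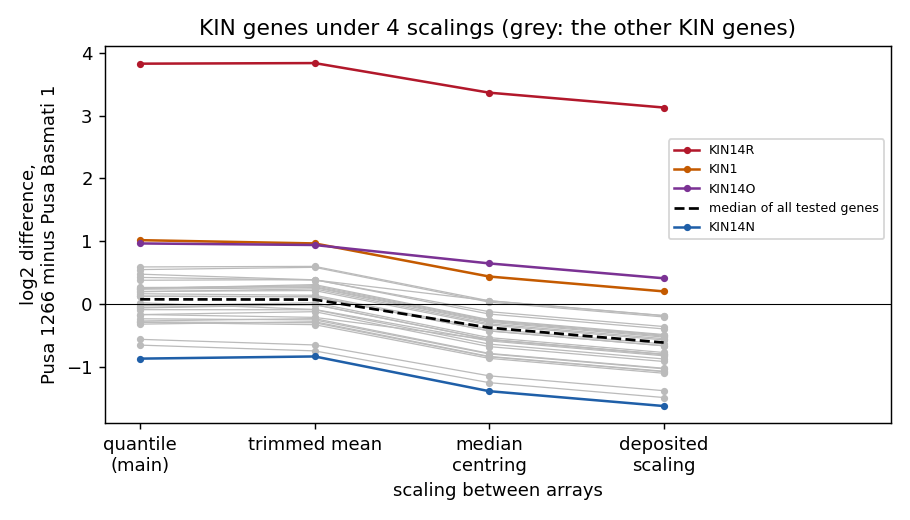
Log2 difference (Pusa 1266 minus Pusa Basmati 1) of each tested KIN gene under 4 scalings between arrays; coloured lines are KIN14R, KIN1, KIN14O and KIN14N, grey lines the other members and the dashed line the median of all 15181 tested genes. Between the deposited scaling and median centring every gene shifts by the same amount, so the members move with the dashed line there by construction. KIN14R stays above 3 under all 4 scalings.

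KIN1 (LOC4344521, chromosome 8), also listed as PSS1, is the kinesin-1-like motor that rice needs for male meiosis and fertile pollen. Its signals were 290 and 353 in Pusa 1266, against 244 and 314 in Pusa Basmati 1. The deposited signals overlapped between the cultivars, whereas the normalized values did not. It rose by 1.02 ± 0.09 after quantile normalization (limma, adjusted p = 4.46e-05), 2.02-fold. With the deposited scaling it stood at 0.20 and did not pass (adjusted p = 0.318), which was 0.82 above the median of all tested genes. Its probe set is of a kind shared by several transcripts, so the value may not belong to KIN1 alone.

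KIN4A (LOC4346402, chromosome 9), listed also as GDD1 and BC2, is a motor whose rice mutants are dwarf, with cellulose microfibrils in altered orientation. Its signals were 539 and 601 in Pusa 1266, against 578 and 732 in Pusa Basmati 1. It rose by 0.59 ± 0.07 after quantile normalization, and stood at −0.19 without passing under the deposited scaling. The deposited signals overlapped, and the normalized values did not.

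The subfamily KIN5 holds the bipolar motors that push antiparallel microtubules of the spindle apart. KIN5C gave signals of 762 and 842 in Pusa 1266, against 1097 and 1277 in Pusa Basmati 1. Both KIN5 genes were called higher, KIN5A by 0.47 ± 0.08 and KIN5C by 0.19 ± 0.05. Both turned negative with the deposited scaling, at −0.36 and −0.55, and both lay above the median of all tested genes there. KIN5C did not pass when either Pusa 1266 array or the first Pusa Basmati 1 array was left out, at 0.17 to 0.20.

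The subfamily KIN7 includes the NACK motors, which in tobacco activate the kinase cascade that widens the phragmoplast during cytokinesis. Of 7 tested genes 1 was higher, 2 were lower and 4 were not called, where 34.7% of all tested genes were higher and 26.2% lower. With the deposited scaling all 7 stood below 0, where the median of all tested genes was −0.62. KIN7A (LOC4323990, chromosome 1), the gene listed as NACK and DBS1, had signals of 55.9 and 15.4 in Pusa 1266, against 80.8 and 55.4 in Pusa Basmati 1. The Pusa 1266 replicates were further apart than the cultivars, and the difference of −0.17 ± 0.42 did not pass (adjusted p = 0.767). It turned to 0.58 without the second Pusa 1266 array and passed at −0.92 without the first, so single arrays set its direction.

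KIN7L fell by 0.66 ± 0.08 and KIN7C by 0.32 ± 0.06, while KIN7K rose by 0.26 ± 0.06 after quantile normalization. KIN7K stood at −0.51 with the deposited scaling, 0.10 above the median of all tested genes. KIN7D gave signals of 697 and 682 in Pusa 1266, against 1160 and 1274 in Pusa Basmati 1. KIN7F gave 357 and 438 in Pusa 1266, against 606 and 671 in Pusa Basmati 1. Both had lower deposited signals on both Pusa 1266 arrays, and their normalized differences of −0.06 and 0.13 did not pass. KIN7J at −0.09 did not pass either.

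KIN8B belongs to a subfamily that in yeast and animals limits the length of spindle microtubules. Its signals were 259 and 270 in Pusa 1266, against 535 and 644 in Pusa Basmati 1. It fell by 0.29 ± 0.08, and did not pass without the second array of either cultivar (−0.23 and −0.24). A second probe set of KIN8B had signals of 5.5 and 0.7 in Pusa 1266, against 5.1 and 8.5 in Pusa Basmati 1, too low to be tested. The chosen probe set is of a kind that can match other transcripts.

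Motors of the phragmoplast, the microtubule array that builds the new cell wall between daughter cells, make up the subfamilies KIN10 and KIN12. KIN10A (LOC4331094, chromosome 2), listed as STD1, a phragmoplast kinesin named after a stemless dwarf mutant of rice, gave 586 and 640 in Pusa 1266, against 848 and 936 in Pusa Basmati 1. It rose by 0.23 ± 0.06 after quantile normalization (0.21 and not passing without the first Pusa 1266 array), whereas KIN10B fell by 0.29 ± 0.06. KIN10C gave 648 and 747 in Pusa 1266, against 1175 and 1228 in Pusa Basmati 1, and its difference of −0.03 ± 0.06 did not pass. KIN12C, with signals of 985 and 1078 in Pusa 1266, against 1350 and 1563 in Pusa Basmati 1, rose by 0.24 ± 0.05. KIN12E at 0.16 ± 0.07 did not pass. With the deposited scaling KIN10A and KIN12C stood at −0.53 and −0.49, above the median of all tested genes, and KIN10B at −1.08, below it. The phragmoplast motors thus held members of both directions, none beyond 0.3 after quantile normalization.

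KIN13A (LOC4337845, chromosome 5), listed as SRS3, is the kinesin-13 whose loss gives small round seeds in rice. Its chosen probe set gave 486 and 562 in Pusa 1266, against 755 and 818 in Pusa Basmati 1, and was called higher at 0.20 ± 0.06, a call lost at 0.17 to 0.21 without either Pusa 1266 array or the second Pusa Basmati 1 array. The second probe set gave 290 and 361 in Pusa 1266, against 631 and 726 in Pusa Basmati 1, and was called lower at −0.24 ± 0.07. The probe sets of KIN13A therefore went opposite ways, and their mean of −0.02 did not pass (adjusted p = 0.822). KIN13B gave 560 and 695 in Pusa 1266, against 1184 and 1401 in Pusa Basmati 1, and fell by 0.27 ± 0.06, from a probe set of a kind that can match other transcripts. It did not pass without the first Pusa 1266 array, at −0.21.

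The subfamily KIN14 had 14 members with a probe set, of which 12 were tested. Of the tested 6 (50%) were higher, 3 (25%) lower and 3 not called, where 34.7% of all tested genes were higher and 26.2% lower. With the deposited scaling 10 of the 12 stood below 0, where the median of all tested genes was −0.62. Without KIN14R the subfamily's differences after quantile normalization ran from −0.87 to 0.96 with a median of 0.12, equal to the family's. KIN14I (LOC4337322, chromosome 4), also KCBP, a motor regulated by calmodulin, gave 677 and 733 in Pusa 1266, against 1175 and 1310 in Pusa Basmati 1. Its normalized difference of −0.06 ± 0.06 did not pass. KIN14Q (LOC4352456, chromosome 12), also KCH1, which links microtubules to actin through a calponin homology domain, gave 113 and 150 in Pusa 1266, against 231 and 258 in Pusa Basmati 1. Its difference of 0.02 ± 0.09 did not pass. KIN14C gave 691 and 791 in Pusa 1266, against 1274 and 1563 in Pusa Basmati 1, and stood at −0.17 ± 0.06, a call lost at −0.12 to −0.18 when either Pusa 1266 array or the second Pusa Basmati 1 array was left out.

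**Figure D3:**
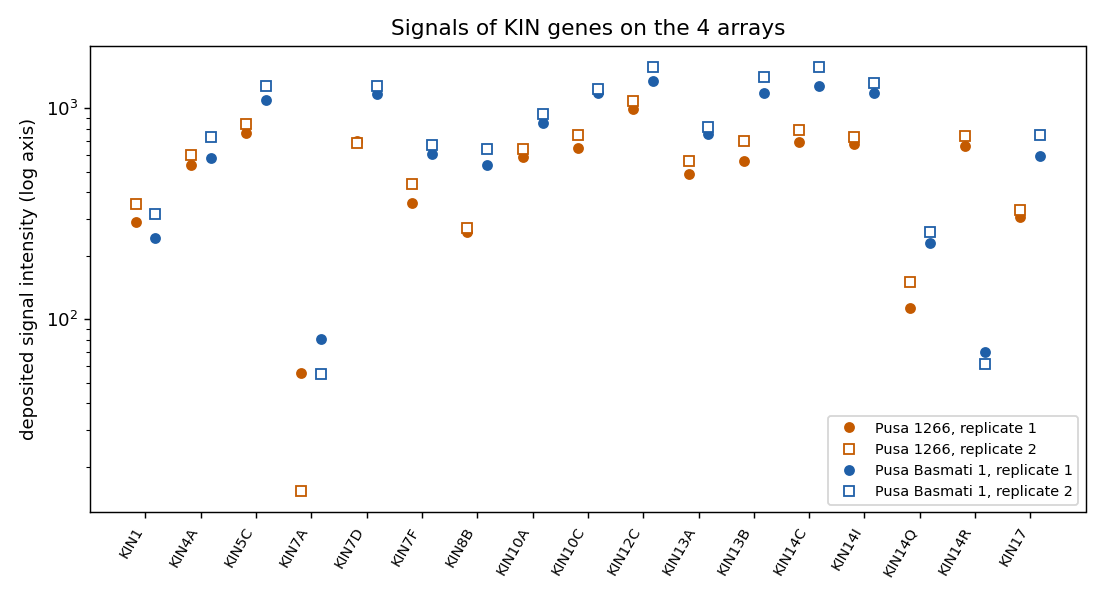
Deposited signal intensity (log axis) of 17 KIN genes on each array; filled circles are replicate 1 and open squares replicate 2, with Pusa 1266 to the left of Pusa Basmati 1 for each gene. Signals of different genes come from different probes and are not compared. KIN14R is the one gene whose 2 Pusa 1266 points lie above both Pusa Basmati 1 points, and KIN7A has the widest gap between replicates.

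The genes KIN14N and KIN14O lay at the ends of the remaining range and were singled out after their values were seen. KIN14N gave 513 and 449 in Pusa 1266, against 1471 and 1564 in Pusa Basmati 1, and fell by 0.87 ± 0.11, the lowest of the family under all 4 scalings (−1.63 with the deposited one). KIN14O gave 28.7 and 54.1 in Pusa 1266, against 21.0 and 32.1 in Pusa Basmati 1. Its deposited signals overlapped between the cultivars and lay near the added constant of 16. It was called higher at 0.96 ± 0.21, and stood at 0.41 without passing under the deposited scaling (adjusted p = 0.0592).

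Of the other KIN14 genes, KIN14E rose by 0.55 ± 0.08, KIN14A by 0.38 ± 0.06 and KIN14H by 0.25 ± 0.06 (0.19 and not passing without the first Pusa 1266 array), and KIN14F fell by 0.57 ± 0.10. KIN14E, KIN14A and KIN14H turned to −0.21, −0.40 and −0.50 with the deposited scaling, above the median of all tested genes. KIN14L at 0.12 did not pass. KIN14K was called at 0.42 ± 0.13 from signals of 31.9 to 42.9, and the call was lost without any 1 of the 4 arrays, at 0.40 to 0.44. Its second tested probe set stood at 0.40 and did not pass, and the remaining one had signals of 5.7 or less. Both tested probe sets of KIN14K are of a kind that can match other transcripts. KIN14B and KIN14M were not tested, with signals between 0.5 and 16.9 on the 4 arrays.

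KIN17 (LOC4333285, chromosome 3) met the naming rule, but in animals this symbol belongs to a protein that binds DNA and RNA and is no motor. Its signals were 305 and 330 in Pusa 1266, against 596 and 746 in Pusa Basmati 1, and it stood at −0.24 ± 0.08, a call lost without the second array of either cultivar (−0.20 and −0.16). Leaving it out changed the family's counts only to 14 higher and 8 lower of 31.

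The whole family spread over the 12 chromosomes, with between 1 and 5 members with a probe set on each. Across the tested members the length of the gene in the reference and the log2 difference had a Spearman rho of 0.03 (n = 32 genes, which share the same 4 arrays).

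**Figure D4:**
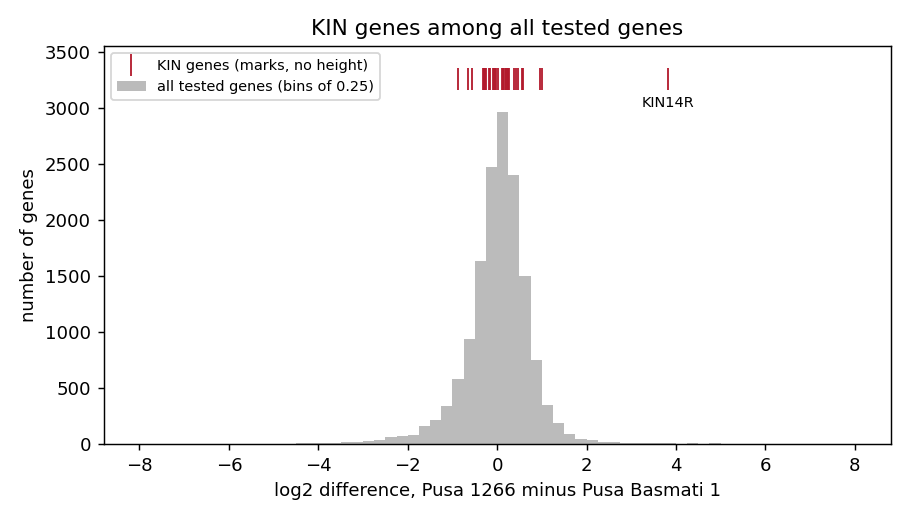
Number of tested genes (grey bars, bins of 0.25) by log2 difference, Pusa 1266 minus Pusa Basmati 1, with each tested KIN gene as a red mark above. The marks crowd around 0 like the bars, except KIN14R at 3.83, above which 38 of 15181 genes lie.

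The genes beside KIN14R on chromosome 12 were also examined, taking the 5 nearest tested genes on each side in the gene order of the reference. Of these 10 genes 5 were higher, 1 was lower and 4 were not called. Among all tested genes 34.7% were higher and 26.2% lower, 60.9% in either direction. LOC4352795, next to KIN14R, gave signals of 301 and 376 in Pusa 1266, against 334 and 376 in Pusa Basmati 1, and was higher by 0.75 ± 0.07 after quantile normalization. Its deposited signals overlapped, and with the deposited scaling it stood at −0.07. LOC4352794 gave 238 and 321 in Pusa 1266, against 222 and 166 in Pusa Basmati 1, with a difference of 1.30 ± 0.16 (0.49 with the deposited scaling). LOC4352793 gave 51.5 and 69.3 in Pusa 1266, against 22.1 and 41.6 in Pusa Basmati 1, with a difference of 1.32 ± 0.18. These 3 genes on 1 side were thus called higher, each with a smaller difference than KIN14R. On the same side LOC4352790 was called higher at 0.66 ± 0.16, from signals of 20.1 to 31.4 that overlapped between the cultivars. With the deposited scaling it stood at 0.18 and did not pass. On the other side the 2 nearest, LOC4352797 and PCF8 (LOC4352799, a TCP-type transcription factor), stood at 0.15 and 0.02 and did not pass. LOC4352797 passed as higher without the second Pusa Basmati 1 array at 0.19 and with trimmed mean scaling at 0.37, and as lower with the deposited scaling at −0.43. PCF8 passed as lower with the deposited scaling at −0.82. In all, 4 of the 10 neighbours changed sign with the deposited scaling, among them LOC4352801, called higher at 0.35 and standing at −0.33 there. The call of LOC4352801 was also lost with the replicate number as a block (adjusted p = 0.062), and at 0.29 to 0.39 without the first Pusa 1266 array or either Pusa Basmati 1 array.

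**Figure D5:**
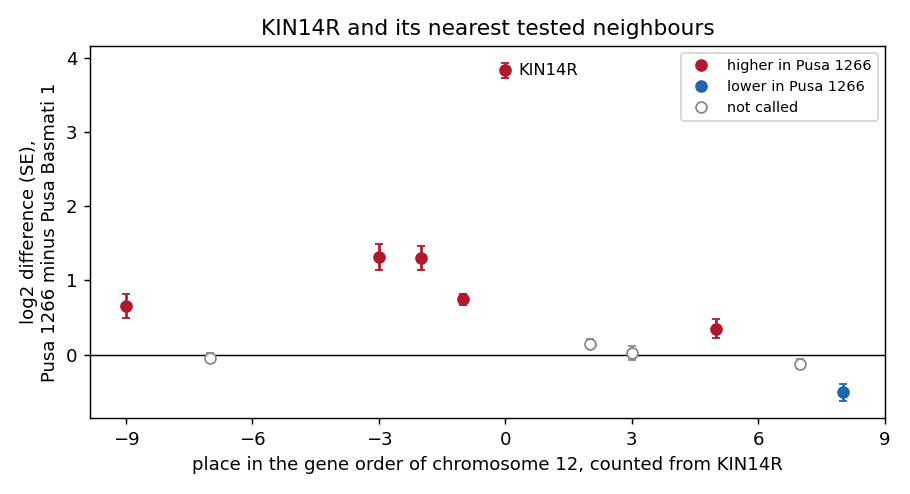
Log2 difference (Pusa 1266 minus Pusa Basmati 1, with SE, n = 2 arrays per cultivar) of KIN14R at place 0 and of the 10 nearest tested genes by their place in the gene order of chromosome 12. The neighbours lie between −0.51 and 1.32, all below KIN14R at 3.83.

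Genes that share the kinesins' work were set beside them. Tubulins, the track of the motors, had 4 of 10 tested genes higher and 2 lower, with a median of 0.11. TUB7, a beta-tubulin, was the one tubulin beyond 2-fold, with signals of 410 and 462 in Pusa 1266, against 1423 and 1681 in Pusa Basmati 1, and fell by 1.03 ± 0.06. The mean over the probe sets of TUB7 was −0.62, short of 2-fold. MOR1, which stabilizes growing microtubules, rose by 0.36 ± 0.05 and stood at −0.31 with the deposited scaling, 0.30 above the median of all tested genes.

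Mitotic cyclins and kinases, the list closest to the share of dividing cells, had 2 of 10 tested genes higher and 2 lower, with a median of 0.14. CYCB1-3 rose by 1.01 ± 0.16 (0.20 with the deposited scaling, not passing), and the mitotic kinase gene CDKB2-1 at −0.12 did not pass (called lower at −0.87 with the deposited scaling). In RNA of whole primordia, fewer cells of a type and less RNA per cell cannot be told apart. Genes of DNA replication had 3 of 18 higher and 8 lower (median −0.16), with RFC1, the large subunit of the clamp loader, at −1.62 ± 0.06. D-type cyclins and the KRP inhibitors of cyclin-dependent kinases, which act at the entry to the cycle, had 11 of 13 higher and 1 lower (median 0.48). KRP4 rose by 1.68 ± 0.09, CYCD3-2 by 1.64 ± 0.06, CYCD5-1 by 1.51 ± 0.11 and KRP6 by 1.08 ± 0.12. With the deposited scaling these stood at 0.88, 0.86, 0.73 and 0.38, and KRP6 no longer passed (adjusted p = 0.065). With the mean over a gene's probe sets KRP4 stood at 0.93 and KRP6 at 0.62. The deposited scaling changed the list counts too, to 3 higher and 5 lower of 13 for D-type cyclins and KRP genes, and to none higher in the other 3 lists, with 6 of 10 tubulins, 8 of 10 mitotic cyclins and kinases and 17 of 18 genes of DNA replication lower. These counts stand beside 4.63% higher and 66.6% lower among all tested genes under that scaling, and 34.7% and 26.2% after quantile normalization. With the deposited scaling the medians of these lists were −0.45 for tubulins, −0.66 for mitotic cyclins and kinases, −0.90 for DNA replication and −0.28 for D-type cyclins and KRP genes, set against −0.62 for all tested genes.

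Some other features of the arrays moved with cultivar. The marker counts below stand beside 34.7% higher and 26.2% lower among all tested genes. With the deposited scaling these shares were 4.63% and 66.6%. Markers of the inflorescence meristem were present on all arrays. Their summed signals for 9 genes were 7983 and 8743 in Pusa 1266, against 8301 and 9036 in Pusa Basmati 1. Of these genes 6 were higher and 1 lower (2 and 4 with the deposited scaling). The sums hide larger differences of single genes. RFL rose by 2.61 ± 0.09 (1.88 with the deposited scaling) and LAX1 by 1.56 ± 0.10 (0.77). MADS34 fell by 0.83 ± 0.08 (−1.64 with the deposited scaling). Photosynthesis genes summed to 1224 and 1195 in Pusa 1266, against 4661 and 5429 in Pusa Basmati 1. Of 5 tested genes 4 were lower and none higher (5 lower with the deposited scaling). LHCP fell by 1.93 ± 0.10, PSAH by 1.67 ± 0.12, RBCS-C by 1.26 ± 0.16 and CAB2R by 1.19 ± 0.06. With the deposited scaling these stood at −2.71, −2.42, −1.96 and −1.85. No gene of either list was at 0, and the lowest signal was 0.8 among photosynthesis genes. Genes of later floral organs had 3 of 9 higher and none lower (none and 7 with the deposited scaling), and their summed signals were 3693 and 4210 in Pusa 1266, against 5910 and 6724 in Pusa Basmati 1. Of the 4 tested meiosis genes 2 were higher and 1 lower (1 and 1 with the deposited scaling), and PAIR2, a protein of the meiotic chromosome axis, rose by 1.85 ± 0.11 (1.08 with the deposited scaling). The ratio of 3' to 5' signal, a sign of RNA integrity, was higher on both Pusa 1266 arrays for the 3 rice control transcripts whose ratio was above 1 on all arrays. It averaged 19.4 in Pusa 1266 and 8.03 in Pusa Basmati 1 for GAPDH, 15.1 and 8.17 for actin, and 3.63 and 2.93 for cyclophilin. Another rice GAPDH control, with signals of 12.4 or less, had ratios of 1.11 in Pusa 1266 and 2.93 in Pusa Basmati 1. Control transcripts that are not of rice went both ways. The mean ratio of DapX was 2.87 in Pusa 1266 and 1.75 in Pusa Basmati 1, and that of CreX 1.14 and 1.19. The part of these features in the differences of KIN14R and the other members was not tested.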

How the data were processed

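Per the labels' protocols, cRNA carrying biotin was prepared from 8 ug of total RNA. The authors' deposited values are signals on a linear intensity scale, 1 per probe set for each array, from GCOS 1.2 (submitters' processing notes). Their scaling is not given in the sources used here, and the trimmed means of the arrays differed by up to 1.98 times. Median signals were 6.8 and 7.8 in Pusa 1266, against 11.5 and 11.3 in Pusa Basmati 1. Arrays give no counts, and precision is limited by their number.

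After adding 16, signals were taken to log2 and quantile normalized over all 57381 probe sets (limma 3.58.1, R 4.3.3). Leaving out 123 control probe sets, the 30029 above their array's median on at least 2 arrays were tested with lmFit and eBayes with a trend, Pusa 1266 minus Pusa Basmati 1. P-values were Benjamini-Hochberg adjusted over all 30029, with a threshold of 0.05. An exact permutation test of 1 gene was not run, since 2 arrays against 2 allow no two-sided p under 0.333. The fit was run on simulated arrays with few changed probe sets, equally many up and down, and a level offset per array. In these data 60.9% of tested genes were called, so the simulation does not bear on the choice of scaling. Python 3.11.15 and pandas 2.3.3 served for tables.

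By the array annotation 22436 probe sets had 1 gene, 95 had several and 34727 had none. For all 34 members, ranking probe sets by mean log2 value or by mean signal chose the same one. Values on all arrays are given for members called at 2-fold or more, for the member with the highest mean in each subfamily and for members with a further published symbol. Of each context list, at most 4 genes called at 2-fold or more were to be named. MOR1, CDKB2-1, MADS34, KIN14N, KIN14O and the neighbours singled out fall outside that rule and were chosen after their values were seen. The members and lists were chosen with earlier results of these data known. Context lists were matched by symbol, and no gene matched the list of the spindle checkpoint. The alternatives covered the scaling, the pseudocount, the filter, the variance model, the replicate number as a block, each array left out, and a mean over a gene's probe sets.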

Additional observations from a re-analysis of the deposited data

How the results depend on the processing

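KIN14R was higher in Pusa 1266 and past the threshold under all 14 alternatives, between 3.10 and 4.20 on the log2 scale, with a highest adjusted p in limma of 0.000161. The family's counts, 14 higher and 9 lower, moved to 1 and 25 with the deposited scaling, to 3 and 18 with median centring and to 8 and 5 with eBayes without a trend, where 10 members lost their call. With 1 array left out they ran from 9 to 12 higher and from 6 to 9 lower, the fewest higher without the first Pusa 1266 array and the fewest lower without the second array of either cultivar. With the replicate block the counts stayed at 14 and 9 and KIN14R at 3.83, and no kinesin gene's call changed. The labels do not say what a shared replicate number stands for, and the replicate differences of the cultivars correlated with r = 0.01 across probe sets. Both pseudocounts changed no kinesin gene's call. The 10 members that lost their call with eBayes without a trend were KIN5C, KIN7K, KIN8B, KIN10A, KIN12C, KIN13A, KIN13B, KIN14C, KIN14H and KIN17. With the mean over a gene's probe sets the counts were 12 higher and 8 lower. There KIN8B (−0.21), KIN13A (−0.019) and KIN14K (0.31) lost their call. Without KIN17, an alternative added after seeing the data, the counts were 14 and 8.

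Directions turned in 15 members with the deposited scaling: KIN4A (−0.19), KIN5A (−0.36), KIN5C (−0.55), KIN7F (−0.67), KIN7K (−0.51), KIN10A (−0.53), KIN12C (−0.49), KIN12E (−0.64), KIN13A (−0.57), KIN14A (−0.40), KIN14E (−0.21), KIN14H (−0.50), KIN14K (−0.19), KIN14L (−0.67) and KIN14Q (−0.83). With median centring 12 turned: KIN5A (−0.12), KIN5C (−0.32), KIN7F (−0.43), KIN7K (−0.28), KIN10A (−0.29), KIN12C (−0.25), KIN12E (−0.40), KIN13A (−0.34), KIN14A (−0.16), KIN14H (−0.26), KIN14L (−0.43) and KIN14Q (−0.59). The median of all tested genes was −0.62 and −0.38 under these scalings, against 0.07 after quantile normalization. With a common trimmed mean KIN10C turned to 0.018 and KIN14Q to −0.089, and with the mean over probe sets KIN13A turned to −0.019. With 1 array left out, 4 members that had not passed in the main setting changed sign. KIN7A ran from −0.92 without the first Pusa 1266 array to 0.58 without the second (0.093 without the first Pusa Basmati 1 array), KIN7D from −0.17 to 0.037 without these same Pusa 1266 arrays and KIN14Q from 0.10 to −0.064. KIN10C ran from −0.084 without the second Pusa Basmati 1 array to 0.027 without the first. Outside the family, 38 of the 79 tested genes of the context lists and 4 of the 10 neighbours changed sign with the deposited scaling. Of those singled out in the text these were LOC4352795 (−0.071), LOC4352797 (−0.43), PCF8, which is LOC4352799 (−0.82), LOC4352801 (−0.33) and MOR1 (−0.31), and with median centring in LOC4352797 (−0.20), PCF8 (−0.58), LOC4352801 (−0.098) and MOR1 (−0.075). PCF8 also turned to −0.074 with a common trimmed mean and to −0.057 without the second Pusa Basmati 1 array.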
